A study of Mus musculus with 11 samples.

Results

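The mouse mitochondrial genome encodes 37 genes, namely 13 mRNAs for subunits of the respiratory chain and ATP synthase, 2 rRNAs and 22 tRNAs. The 37 were taken as every gene whose symbol begins with mt-, out of 55414 gene IDs in the deposited RSEM tables, a rule that uses no measured value. They were followed in poly(A)-selected RNA from the heart apex of C57BL/6 mice, in 11 bulk libraries that form 3 groups. NR denotes mice with no treatment (4 libraries, replicates 1 to 4). S-PRT denotes standard proton radiotherapy and F-PRT denotes FLASH proton radiotherapy, which delivers the dose at an ultra-high rate. Both irradiated groups received 40 Gy focally to the apex and were sampled 2 weeks later, with 4 S-PRT libraries (replicates 1 to 4) and 3 F-PRT libraries (replicates 2 to 4). The series asks how the apex transcriptome differs between these groups.

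Mitochondrial DNA is read from a promoter region on each strand into long precursor RNAs. The rRNAs and most mRNAs are separated by tRNAs, and excision of the tRNAs releases most of the individual transcripts, some of which keep a pair of reading frames. Most of the mRNAs then receive short poly(A) tails, and the minus-strand mt-Nd6 mRNA is known to lack a regular one. Their products form the cores of complex I (7 subunits), complex III (1), complex IV (3) and ATP synthase, or complex V (2), and the remaining subunits are made from nuclear genes. Cardiomyocytes are dense in mitochondria, so these transcripts are abundant in heart RNA.

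Of the mRNAs, 12 lie on the plus strand of the chrM reference in GENCODE M21 (GRCm38) and only mt-Nd6 lies on the minus strand, at chrM:13552-14070. The short reading frames mt-Nd4l (chrM:9877-10173) and mt-Atp8 (chrM:7766-7969) share their messages with mt-Nd4 (chrM:10167-11544) and mt-Atp6 (chrM:7927-8607). The sequences where the frames overlap are shown because the results below turn on mt-Nd4l and mt-Atp8, and the capitals mark the bases that both genes of a pair contain, 7 in the first and 43 in the second. They run 5′ to 3′ on the plus strand at chrM:10144-10196 and chrM:7910-7986.
mt-Nd4l/mt-Nd4: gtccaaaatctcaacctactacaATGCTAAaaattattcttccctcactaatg
mt-Atp8/mt-Atp6: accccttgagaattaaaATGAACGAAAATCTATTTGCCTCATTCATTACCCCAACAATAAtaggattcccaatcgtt

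The annotation gives 3 mRNAs an end at a single T of their stop codon, which the poly(A) tail completes. Their last 15 bases are shown with that T in capitals, because poly(A) selection captured the transcripts through these tails (mt-Co3 at chrM:9376-9390, mt-Nd4 at chrM:11530-11544 and mt-Cytb at chrM:15274-15288, plus strand).
mt-Co3: attgatgaggatctT
mt-Nd4: caggcctgacaataT
mt-Cytb: taaaattatatccaT

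A stretch of chromosome 1 carries pseudogenes almost identical to several of the mRNAs, and RSEM had to divide reads between the copies. Gm10222 matched 294 of the 297 bases of mt-Nd4l at 100% identity, and the annotated genes differ only in where they end. The ends are shown for that reason, with the capitals marking the bases of mt-Nd4l (chrM:10141-10173) beyond the annotated end of Gm10222. Chromosome 1 carries these bases too. They fall at the start of the next pseudogene, Gm28439, which overlaps the end of Gm10222 and matches mt-Nd4 from its first base.
mt-Nd4l: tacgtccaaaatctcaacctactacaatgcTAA
Gm10222: tacgtccaaaatctcaacctactacaatgc

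The deposited counts of 5 mRNAs cannot be read apart from such a copy. Gm10222 held between 134% and 240% of the mt-Nd4l count across the 11 libraries. Gm28437, identical to mt-Co3 over 783 bases, held 142% to 314% of its count. Gm10925 held 293% to 394% of the mt-Atp6 count over 678 identical bases, and Gm28438, at 99.7% identity over 345 bases, held 281% to 401% of the mt-Nd3 count. Gm29216, at 99.8% identity over the last 483 bases of mt-Co1, held 0.0218% to 16.3% of the mt-Co1 count and is described on its own below. Gm28439, identical over the first 876 bases of mt-Nd4, held up to 2.07% of its count, with 25792 of its 29476 counts in NR 1. The share on the copy differed widely between identical sequences, since Gm28661 matched 681 bases of mt-Co2 at 100% and held 0.01 counts in all libraries together. How RSEM divided the reads was not tested. The results below are therefore given on the deposited counts and again with the counts of 17 aligned nuclear genes added to their mitochondrial counterpart, which is written as copies added.

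The libraries held 20758170 to 40136578 expected counts. All 14 cardiomyocyte markers examined (Myh6, Tnnt2, Ttn and others) were above 0 in every library, and their summed level overlapped between NR (70817 to 82261 CPM, counts scaled to library size with TMM factors), S-PRT (68147 to 81771) and F-PRT (72480 to 82398). Whether replicates came from separate animals is not in the labels, so p-values describe library-to-library spread only, and some of it may be technical.

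The 13 mRNAs made up a large part of every library. They held 41.6%, 36.95%, 33.3% and 29.3% of the expected counts in NR 1 to 4, a mean of 35.3% ± 5.24 (SD, n = 4). In S-PRT 1 to 4 they held 41.4%, 40.9%, 39.7% and 35.2%, a mean of 39.3% ± 2.84 (SD, n = 4). F-PRT 2 to 4 were spread most widely, at 30.2%, 40.3% and 22.7%, with a mean of 31.0% ± 8.83 (SD, n = 3). In NR and S-PRT the share fell from replicate 1 to 4, and F-PRT has no replicate 1, so its mean covers other replicate numbers. The 3 groups overlapped, since F-PRT 3 lay among the S-PRT libraries while F-PRT 4 was below every other library. On the per-length TPM scale the mRNAs of NR held 45.9% ± 4.19, those of S-PRT 47.8% ± 1.37 and those of F-PRT 38.8% ± 9.22 (SD, n = 4, 4 and 3). With copies added, the NR libraries had 48.3%, 43.0%, 38.8% and 34.3% of counts, the S-PRT libraries 48.4%, 48.2%, 46.2% and 41.4%, and the F-PRT libraries 36.1%, 47.9% and 28.1%. The overlap was the same. In bulk tissue, fewer cells of a type and less RNA per cell cannot be told apart.

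**Figure D1:**
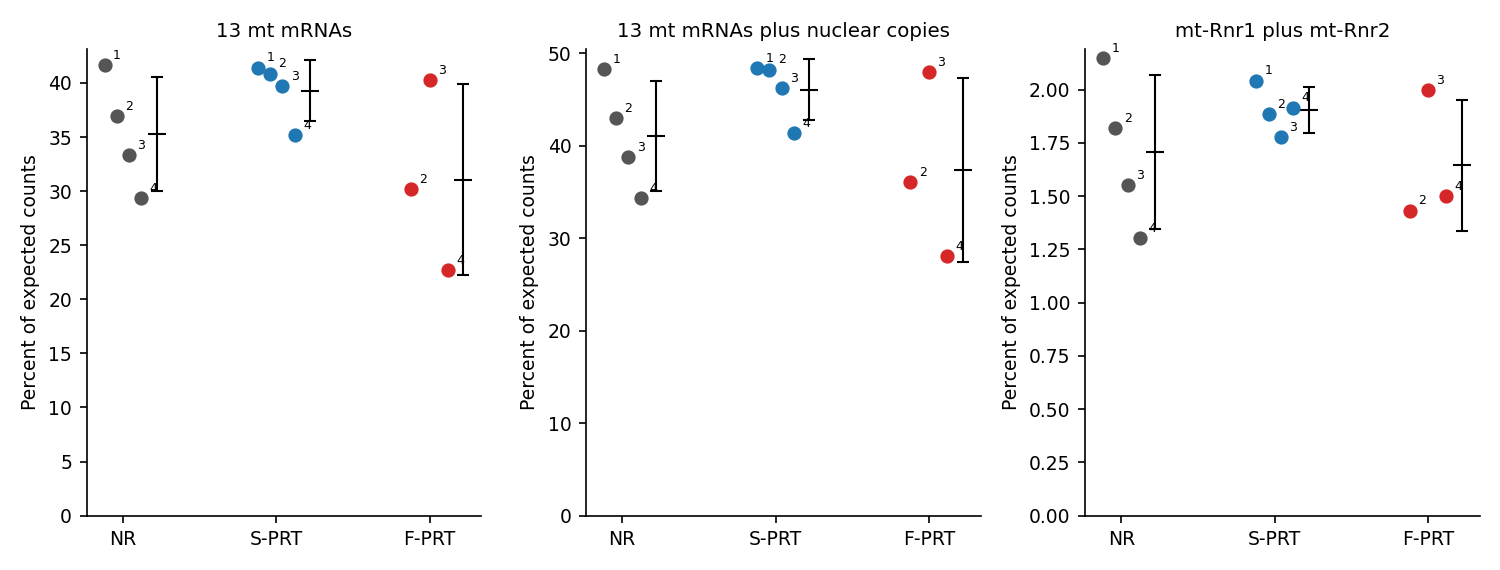
Percent of each library's expected counts held by the 13 mitochondrial mRNAs, by the same mRNAs plus their nuclear copies, and by the 2 rRNAs, in each of the 3 groups. Points are libraries labelled by replicate number, and the bars give the mean and SD. The groups overlap in all 3 panels, and F-PRT 4 is the lowest library in the mRNA panels.

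By complex, S-PRT had the highest mean for all 4 and F-PRT the lowest for complexes I and III, while the order of NR and F-PRT for complexes IV and V turned with the nuclear copies. The 7 complex I mRNAs held 12.7% ± 2.08 of NR counts, 13.6% ± 0.748 of S-PRT counts and 9.48% ± 2.78 of F-PRT counts. The 3 complex IV mRNAs, which encode the cytochrome c oxidase core, held 17.7% ± 2.497, 20.2% ± 1.62 and 17.1% ± 4.95 in the same order. The complex III mRNA mt-Cytb held 4.06% ± 0.560, 4.57% ± 0.447 and 3.60% ± 0.992, and the 2 ATP synthase mRNAs held 0.831% ± 0.111, 0.981% ± 0.0475 and 0.844% ± 0.144 (SD, n = 4, 4 and 3 throughout). With copies added, complex IV stood at 20.6% ± 2.79, 23.4% ± 1.72 and 20.7% ± 5.53 and ATP synthase at 3.15% ± 0.393, 3.804% ± 0.320 and 3.14% ± 0.610 in the same order, so that NR and F-PRT lay within their SDs. Complex I stood at 13.3% ± 2.22, 14.3% ± 0.823 and 9.96% ± 2.88. These sums were not tested.

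Among single mRNAs, the per-length level in NR was highest for mt-Co1, the catalytic subunit of complex IV, at 89050 ± 9314 TPM, followed by mt-Co2 at 76354 ± 5586 TPM (SD, n = 4). With copies added, mt-Co3 reached 63203 ± 4103 TPM and mt-Atp6 60787 ± 4538 TPM, against 16559 ± 1435 and 13736 ± 1128 TPM as deposited, so the place of these genes in the order rests on how the reads were divided. mt-Co1 and mt-Co2 differed by less than the sum of their SDs, as did mt-Co3 and mt-Atp6 with copies added, and mt-Cytb (40278 ± 3668 TPM) and mt-Nd1 (34695 ± 2768 TPM). The mt-Atp8 level of 73854 ± 5311 TPM rests on an effective length of 18.1 ± 1.32 bases, the part of this 204-base gene in which a fragment can start, and is not comparable with the longer genes. The lowest NR levels with copies added were those of mt-Nd5 (16579 ± 3234 TPM) and mt-Nd6 (23577 ± 3812 TPM), and mt-Nd4l lay at 40471 ± 4912 TPM.

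Standard irradiation was compared with no treatment. The mt-mRNAs had a median log2 fold change of 0.30, against 0.01 over all genes tested, and 12 of the 13 estimates were positive, but 0 of the 15 tested genes (the 13 mRNAs and 2 rRNAs) passed edgeR's quasi-likelihood test with Benjamini-Hochberg adjustment. The share of all genes called in this comparison was 1.29% (0.872% higher and 0.419% lower), and 1 of the 15 had an unadjusted p under 0.05. The median of the mRNAs depended on single NR libraries, at 0.48 without NR 1 and 0.16 without NR 4, and it was 0.09 with limma on log2 TPM and 0.12 with the trend of fold change on transcript length removed. The gene with an unadjusted p under 0.05 was mt-Nd3, a complex I subunit, which held 0.107%, 0.0905%, 0.0873% and 0.0802% of the counts in NR and 0.165%, 0.134%, 0.106% and 0.126% in S-PRT. Its values overlapped only through S-PRT 3, which lay just under NR 1, and its log2 fold change was 0.67 ± 0.23 (SE, edgeR adjusted p = 0.14). In CPM the NR and S-PRT values overlapped for all 15 genes, while 7.34% of all genes had S-PRT wholly above NR and 6.71% wholly below. The next smallest p was that of mt-Atp8, the smaller of the mitochondrial ATP synthase subunits, with a log2 fold change of 0.55 ± 0.26 (SE, edgeR adjusted p = 0.28). This fit of counts takes no account of effective length, which for mt-Atp8 was 18.1 ± 1.32 bases in NR and 23.8 ± 4.62 in S-PRT (SD). Per length, mt-Atp8 stood at 73854 ± 5311 TPM in NR and 74174 ± 2166 TPM in S-PRT (SD), so no rise was seen on that scale. With copies added 0 of 15 passed as well (1.29% of all genes), and mt-Nd3 had 0.57 ± 0.24 (adjusted p = 0.24).

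Calls in this comparison depended on whether the replicate number was used as a block. Same-numbered NR and S-PRT libraries deviated together (r = 0.18 to 0.36), but so did libraries 1 with 2 (r = 0.44 and 0.17) and 3 with 4 (r = 0.35 and 0.37), so the numbers do not single out pairs. In a fit of the NR and S-PRT libraries alone with the replicate number as a block, 9.74% of all genes were called, and 6.42% were called higher. In that fit 4 of the 15 genes were higher: mt-Nd3 by 0.67 ± 0.08 (adjusted p = 0.0021), and mt-Co3, mt-Nd2 and mt-Atp6 by 0.39, 0.37 and 0.33 (edgeR adjusted p = 0.031, 0.041 and 0.049). With copies added and the same block, mt-Nd3, mt-Nd2, mt-Atp6 and mt-Atp8 passed and mt-Co3 had an adjusted p of 0.080. In a block fit over all 11 libraries, 0 of the 15 passed and 0.412% of all genes were called. The 4 genes were named from this fit after their values were seen.

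FLASH irradiation was compared with the same NR libraries. mt-Nd4l, a small membrane subunit of complex I, fell and was the only one of the 15 genes to pass, while 19.5% of all genes were called, 8.67% lower and 10.8% higher. It held 0.125%, 0.116%, 0.103% and 0.0858% of the counts in NR 1 to 4 and 0.0402%, 0.0734% and 0.0295% in F-PRT 2 to 4. On this scale the groups did not overlap, and F-PRT 3 was the nearest to NR. On the CPM scale used for the test, with TMM scaling, F-PRT 3 (848 CPM) lay above NR 4 (711 CPM), and the groups overlapped for all 15 genes. Of all genes, 17.5% had F-PRT wholly above NR and 13.9% wholly below. The log2 fold change was -1.15 ± 0.35 (SE, edgeR adjusted p = 0.038). With copies added it was -1.31 ± 0.41 (adjusted p = 0.040) and again the only call, with 19.5% of all genes called. Its copy Gm10222, which shares its reads, had -1.39 ± 0.44 on its own (adjusted p = 0.042). The call rests on few libraries: without F-PRT 2, F-PRT 4, NR 1, NR 2 or NR 3 the adjusted p was 0.119, 0.113, 0.0962, 0.0776 and 0.0585, and without F-PRT 3 it was 0.0025 with 4 of the 15 genes called lower (mt-Nd4l, mt-Nd4, mt-Nd5 and mt-Atp8). In that fit 25.4% of all genes were called, 11.7% lower. With copies added, 0 of the 15 were called without any one of those 5 libraries or of S-PRT 1, 2 or 3. The copies-added call was also lost with the replicate block (adjusted p = 0.051) and with the length trend removed (adjusted p = 0.057).

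The estimate nearest to it was that of mt-Nd5, a large membrane subunit of complex I and the last plus-strand mRNA before mt-Cytb. It held 3.76%, 3.13%, 2.69% and 2.11% of the counts in NR 1 to 4 and 1.40%, 2.31% and 0.763% in F-PRT 2 to 4. Only F-PRT 3 reached into the NR range, just above NR 4. The log2 fold change was -0.95 ± 0.41 (SE, edgeR adjusted p = 0.11), and it did not pass. The other mRNAs ranged from -0.49 for mt-Nd4 to 0.51 for mt-Co3, and the median of the 13 was -0.18 against 0.03 over all genes, with 5 positive and 8 negative. That median rested on single libraries, at -0.60 without F-PRT 3 (11 negative), 0.07 without F-PRT 4 (8 positive), -0.0014 without NR 1 and -0.31 without NR 4, and it was -0.42 with the length trend removed. With copies added the mt-Co3 estimate was 0.11 and that of mt-Atp6 0.00. mt-Nd6, the minus-strand mRNA, had 0.02 ± 0.28 (adjusted p = 0.96).

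The irradiated groups were also compared directly, on the F-PRT and S-PRT libraries that enter the comparisons above. Of the 15 genes 0 passed, as did 0% of all genes tested by edgeR (2315 had an unadjusted p under 0.05, and DESeq2 called 168), so nothing can be read from the members' count. The unadjusted p was under 0.05 for 5 of the 15, all with lower estimates in F-PRT: mt-Nd4l at -1.26 ± 0.35 (adjusted p = 0.18), mt-Atp8 at -0.99 ± 0.28 (adjusted p = 0.18), mt-Nd5 at -0.93 ± 0.41 (adjusted p = 0.30), mt-Nd4 and mt-Nd2. For mt-Atp8 the F-PRT libraries held 0.0928%, 0.146% and 0.0878% of the counts and S-PRT held 0.199%, 0.165%, 0.198% and 0.245%. Every F-PRT value lay below every S-PRT value. In CPM, mt-Nd4l and mt-Atp8 were the 2 of 15 genes whose F-PRT values lay wholly below S-PRT, as 5.17% of all genes did, and 0 lay wholly above, as 5.45% did. The median of the 13 mRNAs was -0.47, against 0.00 over all genes, with 12 negative. It was -0.90 without F-PRT 3 and -0.23 without F-PRT 4.

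**Figure D2:**
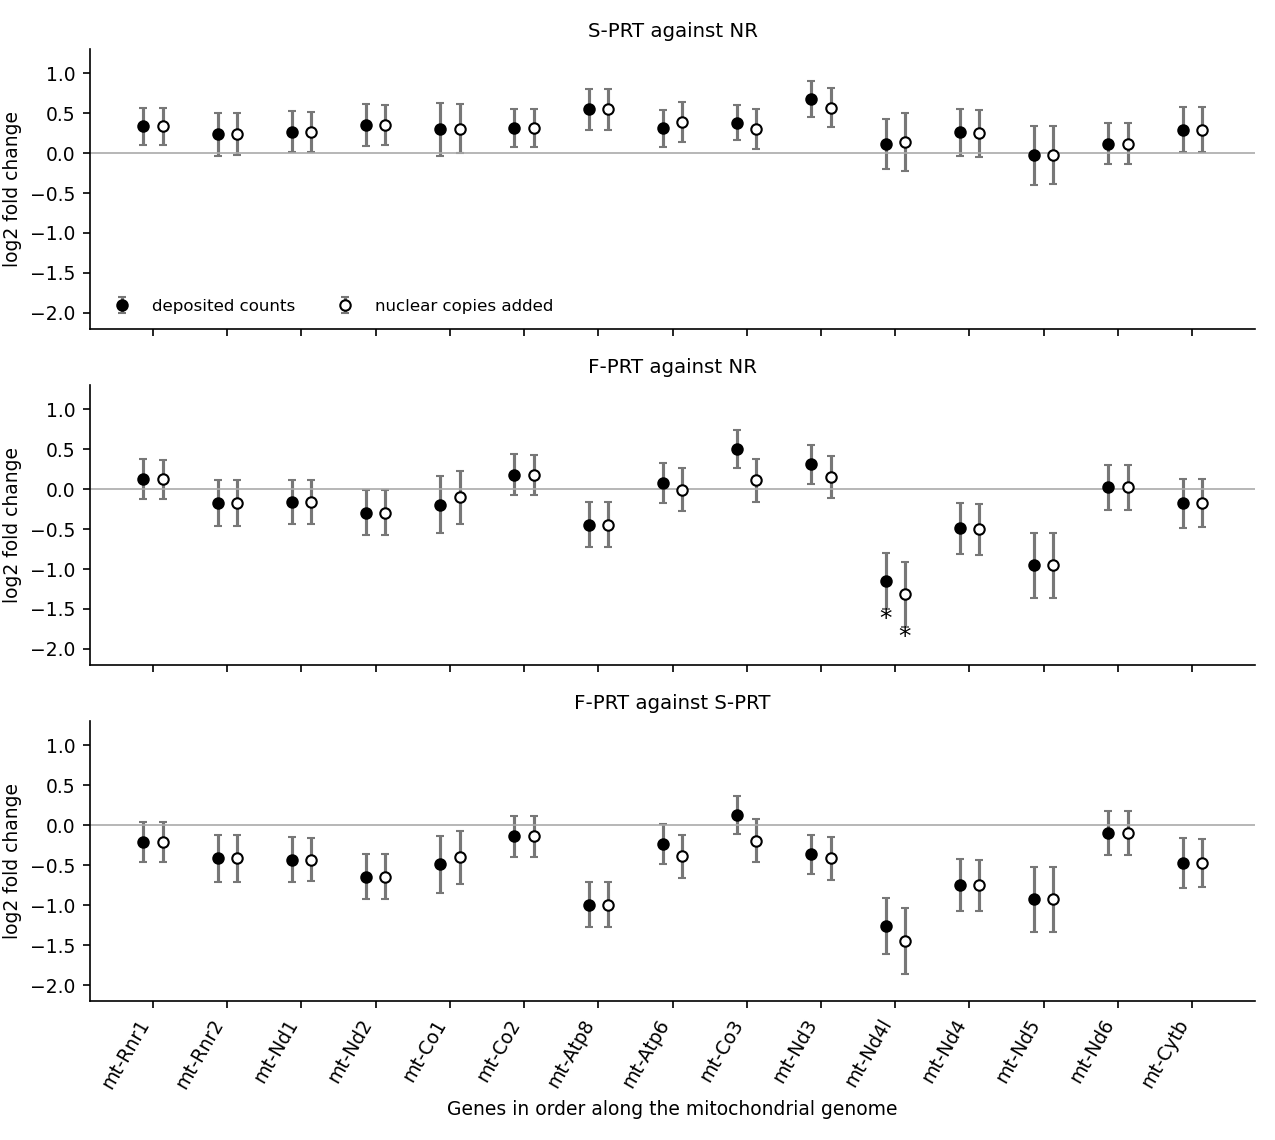
Log2 fold changes of the 15 tested genes in the 3 comparisons, in genome order, from deposited counts (filled) and with nuclear copies added (open). Bars are standard errors, and an asterisk marks an edgeR adjusted p under 0.05. mt-Nd4l in F-PRT against NR is the only marked gene, at -1.15 and -1.31.

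Because the whole pool varied between libraries, each mRNA was next expressed as a share of the summed counts of the 13, with copies added. mt-Cytb varied little, with 9.81% to 10.04% of the NR pool, 9.503% to 10.2% of the S-PRT pool and 9.58% to 9.72% of the F-PRT pool. mt-Nd4l held 0.862%, 0.889%, 0.826% and 0.798% of the pool in NR and 0.741%, 0.664%, 0.749% and 0.971% in S-PRT. In F-PRT 2 to 4 it held 0.315%, 0.472% and 0.245%, below every library of the other groups. mt-Nd5 held 7.80%, 7.29%, 6.93% and 6.13% of the NR pools, 5.62%, 5.41%, 5.96% and 6.38% of the S-PRT pools, and 3.89%, 4.81% and 2.72% of the F-PRT pools. F-PRT again lay below all others, and S-PRT 4 was the only S-PRT library inside the NR range. mt-Nd4 held 9.11% to 9.36% of the NR pools, 8.95% to 9.04% of the S-PRT pools, and 7.01%, 7.54% and 6.66% of the F-PRT pools.

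Other mRNAs took a larger part of the F-PRT pool. mt-Co2, the complex IV subunit that takes electrons from cytochrome c, held 9.03% to 9.77% in NR and 9.34% to 9.75% in S-PRT. The F-PRT libraries had 11.6%, 10.7% and 13.96%. mt-Co3 held 8.84% to 9.74% of the NR pool, 9.03% to 9.89% of the S-PRT pool and 10.9% to 11.7% of the F-PRT pool. Counted over the 13, F-PRT lay wholly above NR for 4 (mt-Co2, mt-Co3, mt-Atp6 and mt-Nd3) and wholly below for 6 (mt-Nd2, mt-Nd4l, mt-Nd4, mt-Nd5, mt-Atp8 and mt-Cytb). In the CPM of all genes tested, 17.5% lay wholly above and 13.9% wholly below in that comparison, although shares within 1 pool are not CPM and must sum to the whole. S-PRT lay wholly above NR for mt-Nd3 and wholly below for mt-Nd4, while in CPM 7.34% of all genes lay above and 6.71% below. This depended on the scale. As shares of the summed TPM both genes overlapped, and mt-Nd2 lay wholly above and mt-Nd4l wholly below instead. For F-PRT against NR, mt-Co1 also lay wholly above as a share of TPM and mt-Cytb overlapped, which gave 5 above and 5 below. The mt-Co1 share of TPM takes the shorter copy Gm29216 at its own length.

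Scaling every gene to this pool, with copies added, allowed the same edgeR test within the pool. Its p-values lean far more than those of the main fit on a spread estimated over all genes on this scale. They therefore do not measure the spread of a single gene between libraries alone. mt-Nd4l was lower in F-PRT than in NR by a log2 fold change of -1.295 ± 0.26 (SE, adjusted p = 0.00022) and mt-Nd5 by -0.89 ± 0.19 (SE, adjusted p = 0.00067). These were the only 2 calls among the 15, where 1.37% of all genes were called, 0.172% lower and 1.2% higher, and on this scale the median of all genes moved to 0.27. Both calls held on leaving out each library in turn, and without F-PRT 3 mt-Nd4 (lower) and mt-Co2 (higher) passed as well. In that fit 19.4% of all genes were called, 18.8% higher and 0.518% lower. Against S-PRT, mt-Nd4l alone passed (-1.18 ± 0.26, edgeR adjusted p = 0.0027), with 0.44% of all genes called, 0.0412% lower and 0.399% higher, and mt-Nd5 had -0.62 ± 0.18 (adjusted p = 0.12). Without F-PRT 3, 5 of the 15 were called in that comparison (mt-Co2 higher, and mt-Nd4l, mt-Nd5, mt-Nd4 and mt-Atp8 lower), where 50.7% of all genes were called, 50.4% higher and 0.249% lower. S-PRT against NR gave 0 calls within the pool, with 0.625% of all genes called, 0.406% higher and 0.22% lower.

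**Figure D3:**
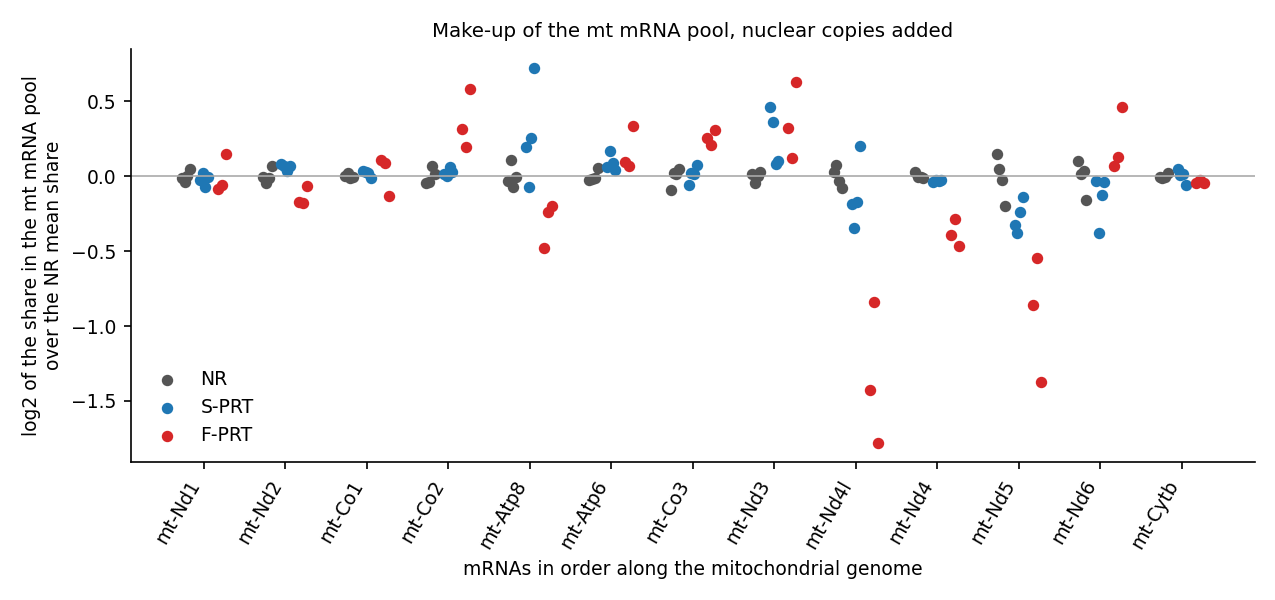
Share of each mRNA in the summed counts of the 13 mitochondrial mRNAs, nuclear copies added, as log2 of the ratio to the NR mean. Each point is a library. The 3 F-PRT libraries lie below all NR and S-PRT libraries for mt-Nd2, mt-Atp8, mt-Nd4l, mt-Nd4 and mt-Nd5. They lie above them for mt-Co2 and mt-Co3.

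The 2 pairs of overlapping reading frames gave a per-length comparison inside 1 message. In NR, mt-Nd4l with its copy stood at 133.8, 138.2, 134.6 and 132.6 TPM per 100 TPM of mt-Nd4. In S-PRT the ratio was 105.8, 111.6, 110.3 and 124.6, and in F-PRT it was 62.1, 87.2 and 44.8. On this scale the 3 groups did not overlap, in the order NR, S-PRT, F-PRT. In counts per 100 of mt-Nd4 the same ratio was 8.75 to 9.73 in NR, 7.34 to 10.8 in S-PRT and 3.68 to 6.26 in F-PRT, so NR and S-PRT overlapped and only F-PRT stood apart. mt-Atp8 per 100 TPM of mt-Atp6 with its copy was 121.2 to 121.8 in all 4 NR libraries. It was 107.1, 99.8, 106.6 and 126.3 in the S-PRT libraries and 74.7, 92.4 and 57.2 in the F-PRT libraries. F-PRT lay below the others, S-PRT 1 to 3 lay below NR and S-PRT 4 lay above NR. In deposited counts, without the copy, mt-Atp8 per 100 of mt-Atp6 was 20.5 to 23.6 in NR. It was 23.9, 20.4, 24.7 and 36.2 in S-PRT 1 to 4 and 12.9, 17.05 and 13.9 in F-PRT 2 to 4. On that scale S-PRT 1, 3 and 4 lay above NR, so the order of NR and S-PRT depended on the scale. F-PRT lay below both groups on each scale. The effective length of these short genes changes steeply with fragment length, and the mean fragment length implied by the deposited effective lengths was 226.8 to 234.0 bases in NR, 212.6, 235.8, 218.5 and 200.4 in S-PRT 1 to 4, and 222.0, 222.7 and 208.0 in F-PRT 2 to 4. F-PRT lay below NR in fragment length too, and the part of that difference in these ratios was not tested.

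Between messages of greater length, mt-Nd5 stood at 116, 110, 102 and 87.6 counts per 100 of mt-Nd1 in the NR libraries. The S-PRT libraries had 84.4, 78.7, 92.6 and 94.7, and the F-PRT libraries 60.7, 74.0 and 36.1. The F-PRT values lay below both other groups, while NR and S-PRT overlapped. mt-Nd5 and mt-Nd1 are 1824 and 957 bases long, and neither has a copy that held more than a trace of its reads. mt-Nd5 and mt-Nd6 overlap by 14 bases on opposite strands. The library kit keeps the strand, and the sources used here do not say whether the counting used it.

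**Figure D4:**
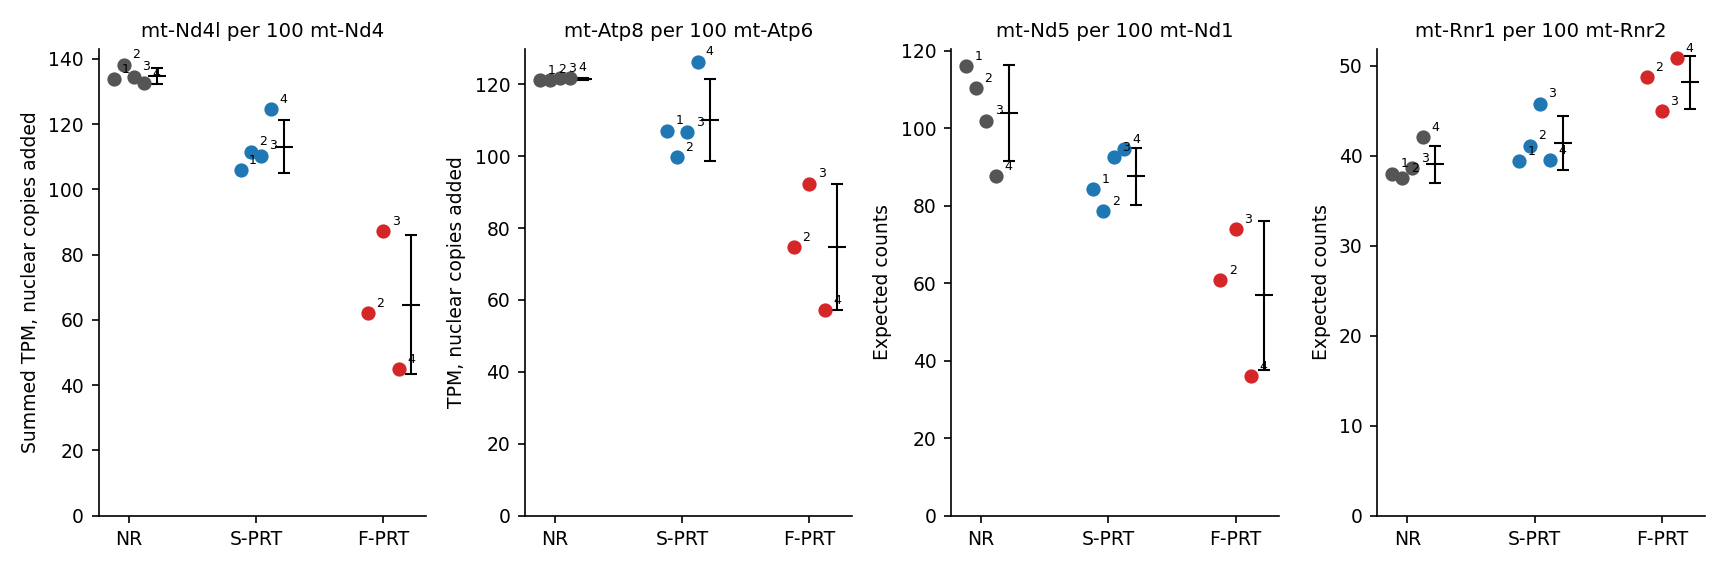
Ratios between mitochondrial transcripts in each library, labelled by replicate number, with the mean and SD of each group. The first 2 panels are per-length TPM ratios with nuclear copies added and the others are count ratios. F-PRT lies below NR and S-PRT for mt-Nd4l per mt-Nd4, mt-Atp8 per mt-Atp6 and mt-Nd5 per mt-Nd1.

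The rRNAs are structural RNAs of the mitochondrial ribosome, and in poly(A)-selected libraries only molecules that were captured are seen. mt-Rnr1 (12S, chrM:70-1024) and mt-Rnr2 (16S, chrM:1094-2675) together held 2.15%, 1.82%, 1.55% and 1.304% of the NR counts. They held 2.04%, 1.89%, 1.78% and 1.92% of the S-PRT counts and 1.43%, 1.998% and 1.501% of the F-PRT counts. The groups overlapped. Neither gene passed edgeR in any comparison: mt-Rnr1 had 0.33 ± 0.23 (adjusted p = 0.48) in S-PRT against NR, 0.12 ± 0.25 (0.76) in F-PRT against NR and -0.21 ± 0.25 (0.71) in F-PRT against S-PRT. mt-Rnr2 had 0.24 ± 0.27 (adjusted p = 0.69), -0.17 ± 0.29 (0.70) and -0.41 ± 0.29 (0.50) in the same order. The sum of the rRNAs stood at 4.80 ± 0.310, 4.87 ± 0.429 and 5.44 ± 1.03 counts per 100 mRNA counts in NR, S-PRT and F-PRT (SD). The ratio between them was 38.0, 37.5, 38.6 and 42.1 mt-Rnr1 counts per 100 of mt-Rnr2 in the NR libraries, 39.4, 41.1, 45.8 and 39.5 in the S-PRT libraries, and 48.7, 45.0 and 50.8 in the F-PRT libraries. F-PRT lay above NR, and F-PRT 3 lay just under S-PRT 3.

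The tRNAs were almost absent, with 22 counts in all 11 libraries together. Of the 22 genes, 18 had 0 counts everywhere, and mt-Ti, mt-Tn, mt-Ts1 and mt-Te had at most 3 in a library. At 59 to 75 bases they are shorter than the fragments, their deposited effective length was 0, and their TPM of 0 follows from that. No difference between groups was detectable for them.

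Gm29216, the chromosome 1 copy of the end of mt-Co1, had the largest fold changes against NR among the 15 tested mitochondrial genes and the 7 tested nuclear copies. It held 931, 2069, 844 and 1440 counts in NR 1 to 4, then 33020, 28491, 10332 and 3109 in S-PRT 1 to 4, and 180116, 121788 and 322796 in F-PRT 2 to 4. Per 100 counts of mt-Co1 this was at most 0.0545 in NR, 0.0602 to 0.786 in S-PRT and 3.81 to 16.3 in F-PRT, with no overlap between the groups. It was higher in S-PRT than in NR by a log2 fold change of 4.22 ± 0.75 (SE, edgeR adjusted p = 0.026) and in F-PRT than in NR by 7.48 ± 0.88 (adjusted p = 0.0022), and between the irradiated groups the difference was 3.26 ± 0.74 (adjusted p = 0.18). At 99.8% identity, how many of these reads came from mt-Co1 RNA cannot be told apart in the deposited counts.

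**Figure D5:**
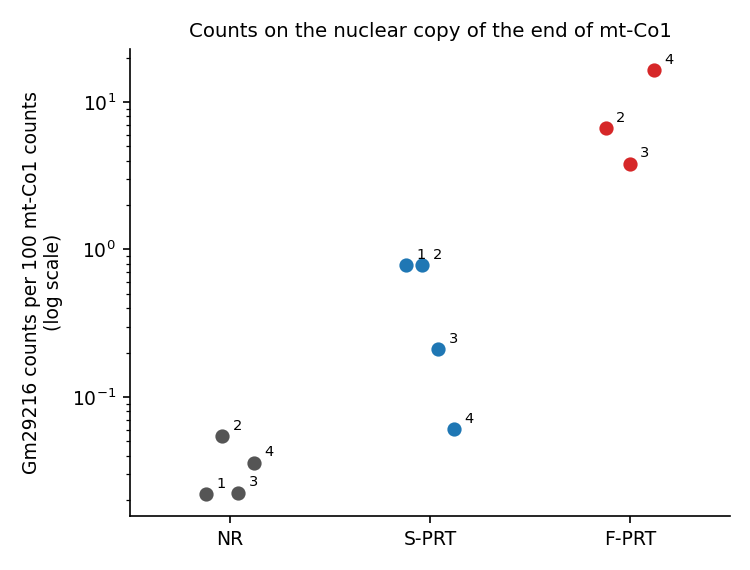
Expected counts of Gm29216 per 100 expected counts of mt-Co1 in each library, on a log scale, labelled by replicate number. The NR libraries lie at or below 0.0545, S-PRT between 0.0602 and 0.786, and F-PRT between 3.81 and 16.3.

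The nuclear genes that make and use these RNAs were described by lists ordered from transcription to assembly. Over these lists 15 genes were called in F-PRT against NR. Of the 15, 0 passed with limma on log2 TPM, with pool scaling or with the length trend removed, 1 by library size, and 9 with the replicate block. Without F-PRT 4, 4 of them passed, and without NR 1, 7. Of 23 genes of mitochondrial transcription and DNA maintenance, 0 were called in S-PRT against NR, and 1 rose and 1 fell in F-PRT against NR, where 19.5% of all genes were called. Polg2, the accessory subunit of the mitochondrial DNA polymerase, rose by 0.75 ± 0.22 (SE, edgeR adjusted p = 0.032), at 2.04 to 2.92 CPM in the NR and S-PRT libraries and 3.65, 2.45 and 4.92 CPM in F-PRT. Rrm2b, a p53-regulated ribonucleotide reductase subunit that supplies nucleotides for mitochondrial DNA, fell by 0.54 on the log2 scale (SE 0.13, adjusted p = 0.018). It stood at 25.5 to 29.6 CPM in NR, 21.0 to 24.1 in S-PRT and 17.3, 24.1 and 15.5 in F-PRT. Rrm2b was also the only one called among 5 p53-regulated genes acting on mitochondrial DNA, whose median was -0.10.

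Of 39 measured genes of mitochondrial RNA processing, modification and decay, 1 rose in S-PRT against NR. This was Slirp, whose product with that of Lrpprc binds and stabilises mitochondrial mRNAs. Slirp stood at 17.6 to 22.9 CPM in NR, 29.1 to 38.4 in S-PRT and 29.2 to 33.3 in F-PRT. Every irradiated library was above every NR library, and the log2 fold changes were 0.73 ± 0.10 (edgeR adjusted p = 0.0086) in S-PRT and 0.61 ± 0.11 (adjusted p = 0.0084) in F-PRT against NR. On the log2 TPM scale neither Slirp call held (limma adjusted p = 0.42 and 0.24 with a pseudocount of 1). Neither held with pool scaling or with the length trend removed, and the S-PRT call was also lost when scaled by library size only. In F-PRT against NR 2 genes of the list fell, Fastkd1 by 0.47 on the log2 scale (SE 0.12, adjusted p = 0.023) and Lrpprc by 0.29 (SE 0.09, adjusted p = 0.036). Lrpprc stood at 153 to 166 CPM in NR, 129 to 151 in S-PRT and 126, 143 and 122 in F-PRT. The medians of the list were 0.02 in S-PRT and 0.04 in F-PRT, close to those of all genes.

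Of 34 translation factors and tRNA synthetases, 0 were called in S-PRT. In F-PRT against NR the elongation factor gene Tsfm rose by 0.52 ± 0.12 (edgeR adjusted p = 0.016) and Mars2, the mitochondrial methionyl-tRNA synthetase, fell by 0.39 (SE 0.11, adjusted p = 0.026), an estimate that turned to 0.065 with the length trend removed. Of all genes, 19.5% were called in F-PRT against NR, 10.8% higher and 8.67% lower. Of 37 partners that insert and assemble the encoded subunits, 7 were higher and 1 was lower in that comparison. The 4 with the smallest p were Coa3 (0.50 ± 0.09), Uqcc3 (0.59 ± 0.13), Cox17 (0.52 ± 0.12) and Cox20 (0.47 ± 0.11), with edgeR adjusted p of 0.0088, 0.013, 0.017 and 0.017, and Cox15, a heme A synthase, was lower at -0.39 ± 0.12 (adjusted p = 0.035). Coa3, Cox17 and Cox20 act on complex IV, and Uqcc3 on complex III. In S-PRT 0 of the 37 were called, and Cox20 came nearest at 0.39 (adjusted p = 0.093). In F-PRT against S-PRT 0 genes of any list passed, with the smallest adjusted p at 0.19 for Tsfm.

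Markers of other cells were summed in the same way, and the sums were not tested. The summed CPM of 10 leukocyte markers was 132 to 226 in NR, 225 to 454 in S-PRT and 187 to 354 in F-PRT, with 0 of them at 0. The 8 fibroblast markers summed to 856 to 1683 CPM in NR, 1016 to 1146 in S-PRT and 477 to 1167 in F-PRT, and the 8 endothelial markers to 368 to 571, 269 to 396 and 268 to 515. The 6 smooth muscle and pericyte markers summed to 341 to 464, 307 to 391 and 283 to 509 CPM, and the 5 erythroid markers to 817 to 1506, 559 to 1032 and 355 to 1639. The 4 atrial markers summed to 48.5 to 80.1, 25.2 to 184 and 97.5 to 198 CPM, with up to 2 of them at 0, and the 5 adipocyte markers stayed at or under 0.27 CPM. Of single markers in S-PRT against NR, 1 endothelial gene fell and 0 passed edgeR in the other lists, where 1.29% of all genes were called. In F-PRT against NR 2 of 10 leukocyte genes rose and 2 of 8 fibroblast genes fell. Of all genes, 10.8% were called higher and 8.67% lower in that comparison. There, 2 of 14 cardiomyocyte genes rose and 1 fell, 1 of 8 endothelial genes rose and 1 fell, and 1 of 2 tested atrial genes rose. The smooth muscle and erythroid lists had 0 calls. Neither the mRNA share nor the shares of mt-Nd4l and mt-Nd5 were compared with these sums, and the part of these cells in the mitochondrial shares was not tested.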

How the data were processed

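The 11 libraries were made from total RNA by poly(A) selection with a directional kit, per the labels' protocols. The submitters' processing notes name FastQC, cutadapt, STAR, RSEM and edgeR, without versions, and the builds GRCm39 and mm10. The authors deposited RSEM expected counts and TPM per gene. Gene IDs were matched without their version, and 52081 of 55414 had a symbol. Lengths of all 37 mitochondrial genes equalled those of GENCODE M21, from which sequences and coordinates were taken. Nuclear copies were found with BLAST 2.17.0 (at least 90% identity over 100 bases).

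Expected counts were rounded. edgeR 4.0.16 in R 4.3.3 (filterByExpr with a minimum count of 10 and total of 15, TMM scaling, quasi-likelihood test, group only) was fitted to all 11 libraries with 8 residual degrees of freedom, with Benjamini-Hochberg adjustment over 14556 genes and calls at an adjusted p of 0.05. The filter kept 13 mRNAs, 2 rRNAs and none of the 22 tRNAs. The script was tested on simulated counts. Other settings used DESeq2 1.42.0, limma 3.58.1 on log2(TPM + 1) and log2(TPM + 0.1), other scalings, no filter, a replicate block, a correction for transcript length, each library left out, and nuclear copies added, the last chosen after seeing the data.

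Same-numbered NR and S-PRT libraries deviated together over 11107 genes (r = 0.27, 0.28, 0.36 and 0.18), and the block was therefore printed beside that comparison. Unlike numbers correlated as well (r up to 0.44, between S-PRT 1 and NR 2), and no label ties the numbers to animals.

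Fold changes are printed for genes that passed, the 2 smallest p-values in each comparison, the rRNAs and mt-Nd6, and, from the lists, up to 4 genes that passed in each direction or the smallest p; the pool and ratio genes, mt-Nd4, mt-Co2 and mt-Co3 were picked after their values were seen. Members and lists were chosen with earlier results of these data known. Expected counts cover counting error only. Depth did not limit the mRNAs and rRNAs, and the tRNAs had an effective length of 0.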

Additional observations from a re-analysis of the deposited data

Results flagged for a closer look

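In 68 groups of 4 libraries examined, chance marks about 1 in 20, and 3 had a library standing far from the others. mt-Nd4 in the NR pool was highest in NR 1 at 9.36%, mt-Cytb in the NR pool was highest in NR 4 at 10.04%, and mt-Co2 in S-PRT was lowest in S-PRT 4 at 3.94% of the expected counts. The pool shares have copies added. Of the mt-Nd4 count of NR 1, 2.03% lay on its nuclear copy, against 0% to 0.334% in NR 2 to 4.

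Gm29216, a nuclear copy that enters none of the counts of mitochondrial genes as deposited, lay above the highest NR library (0.0545 counts per 100 of mt-Co1) in all 7 irradiated libraries. S-PRT 1 to 4 held 0.779, 0.786, 0.210 and 0.0602 per 100 of mt-Co1, and F-PRT 2 to 4 held 6.68, 3.81 and 16.3.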

How the results depend on the processing

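The mt-Nd4l call in F-PRT against NR held in the 10 planned settings that kept all libraries, and its estimate stayed negative in every setting run. Members called were 2 with no filter and 3 with pool scaling, and 0 to 4 on leaving out a library. In F-PRT against S-PRT they were 2 with no filter and 0 to 2 on leaving out a library, and in S-PRT against NR 1 with no filter. With copies added, F-PRT against NR gave 0 with the length trend removed (adjusted p of mt-Nd4l 0.057) and 0 to 4 on leaving out a library, and F-PRT against S-PRT gave 0 to 2. Within the pool with copies added, leaving out a library gave 2 to 4 members against NR and 1 to 5 against S-PRT, with 102 to 2878 and 19 to 7536 of all genes called. The causes were not tested.

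With the replicate block over all libraries, all genes called were 60 for S-PRT and 1501 for F-PRT against NR, and 0 between the irradiated groups. Members called were 0, 1 and 0, or 0 in each with copies added (mt-Nd4l in F-PRT against NR, adjusted p = 0.051), and 0, 2 and 1 within the pool. With NR and S-PRT only, the block called 1371 genes and 4 members (4 with copies added). The log2 fold change of mt-Nd5 in S-PRT against NR was 0.052 with the block over all libraries. With NR and S-PRT only it was 0.041, and with copies added the estimates were 0.052 and 0.041. mt-Nd5 was not called in any of these fits. F-PRT numbers did not pair with NR (r = -0.15, -0.45 and 0.23) or S-PRT (r = -0.36, -0.39 and -0.16). The log2 fold change of mt-Nd6 between the irradiated groups was 0.014 with the block, and mt-Nd6 was not called.

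All genes called in S-PRT against NR were 697 with DESeq2, 14 by library size, 3 and 2 with limma (pseudocounts 0.1 and 1), 605 with no filter, 97 with pool scaling, 107 with the length trend removed and 26 to 444 on leaving out a library. In F-PRT against NR they were 134 by library size, 74 and 71 with limma, 260 with pool scaling, 325 with the length trend removed and 1382 to 3784 on leaving out a library. In F-PRT against S-PRT they were 168 with DESeq2, 3 with its size factors, 4 and 9 with limma, 71 with no filter, 3 scaled on nuclear genes, 87 with pool scaling and 0 to 103 on leaving out a library.

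Some estimates changed sign, all but that of Mars2 among those that did not pass. In S-PRT against NR, mt-Nd4l was -0.23 with limma (both pseudocounts), -0.13 with pool scaling, -0.28 with the length trend removed (-0.25 with copies added) and -0.040 to 0.29 on leaving out a library (-0.023 to 0.33 with copies added). mt-Nd5 was -0.21 to 0.22 on leaving out a library (-0.21 to 0.22 with copies added), and mt-Rnr2 was -0.0028 with pool scaling. mt-Nd6 was -0.095 with limma, -0.13 with pool scaling, -0.20 with the length trend removed and -0.055 to 0.34 on leaving out a library. In F-PRT against NR, with the length trend removed, mt-Nd3 was -0.13, mt-Rnr1 -0.18, mt-Nd6 -0.37 and Mars2 0.065. On leaving out a library, mt-Rnr1 was -0.18 to 0.34, mt-Rnr2 -0.55 to 0.055 and mt-Nd6 -0.33 to 0.24. mt-Rnr2 was 0.087 with pool scaling, and mt-Nd6 was -0.0026 with DESeq2 and its size factors, -0.038 with limma and -0.0024 scaled on nuclear genes. In F-PRT against S-PRT, pool scaling gave 0.21 for mt-Nd3, 0.32 for mt-Rnr1, 0.090 for mt-Rnr2, 0.41 for mt-Nd6, 0.41 for Slc25a36, 0.24 for Fastkd1 and 0.25 for Rrm2b. mt-Nd6 was 0.041 by library size, 0.057 with limma and -0.46 to 0.070 on leaving out a library, and Slc25a36 was 0.078 and 0.067 with limma.

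Over nuclear genes only, the mRNA counts were 56.9%, 67.1% and 47.9% (NR, S-PRT, F-PRT), the rRNA counts 2.76%, 3.25% and 2.51%, and the tRNA counts 1.55e-05% for S-PRT. With copies added the mRNA share was 41.1% for NR and 46.0% for S-PRT, and 60.8%, 63.8% and 53.7% of TPM. The summed TPM takes the shorter copy Gm29216 at its own length, which raises the F-PRT share of TPM. In F-PRT 4 mt-Co1 stood at 46232 TPM as deposited and at 81661 TPM with copies added.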
